A study of Mus musculus with 2 samples.

Results

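Gzmb, Gzmc, Gzmd, Gzme, Gzmf and Gzmg are the 6 granzyme genes B to G, which lie side by side on mouse chromosome 14. They were chosen by name and are 6 of the 32285 genes counted in 2 single-cell libraries of T cells from EMT6 tumours, a transplantable mouse mammary carcinoma. Both groups were BALB/c mice aged 4 to 6 weeks, randomised when their EMT6 tumours, grown under the skin, measured 80 to 150 mm3. One group received mSTAR1302 into the peritoneum for 2 cycles at 1 dose per week, and the other received vehicle. mSTAR1302 is known as an anti-Vβ13 T cell receptor antibody joined to interleukin-2, and Trbv13-2 and Trbv13-3 are taken here as the segments that encode those chains. CD4+ and CD8+ cells were enriched with magnetic beads, so other cell types were depleted and not measured in proportion. Each group is 1 library, and how many mice went into each is not known here. Differences between the libraries therefore have no replicate check, and each interval below covers counting error only.

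Granzymes are serine proteases stored in the granules of cytotoxic T cells and natural killer (NK) cells. Perforin lets them into a target cell, where granzyme B cuts proteins after aspartate and starts apoptosis. Granzymes C to G are found in mice and not in humans. Granzyme C can kill cells by a route that does not need caspases, and granzymes D to G have been described mainly in strongly activated killer cells and in NK cells of the pregnant uterus, with substrates that are poorly known. Activation through the T cell receptor and interleukin-2 is known to induce this gene cluster in cultured CD8 T cells.

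In GRCm38, the assembly also called mm10, all 6 genes lie on the minus strand of chromosome 14 and each has 5 exons in the GENCODE M21 annotation. Gzme (ENSMUSG00000022156) spans 56117626 to 56120625, Gzmd (ENSMUSG00000059256) 56129556 to 56132608 and Gzmg (ENSMUSG00000040284) 56156582 to 56159579. Gzmf (ENSMUSG00000015441) spans 56205263 to 56211417, Gzmc (ENSMUSG00000079186) 56231441 to 56234656 and Gzmb (ENSMUSG00000015437) 56258838 to 56262260. The 6 genes fit in 144.635 kb. Gzmn, a further granzyme, lies between Gzmg and Gzmf, and it had 0 UMIs in the mSTAR1302 CD8 cells and 6 in the vehicle CD8 cells (a UMI, or unique molecular identifier, marks 1 captured transcript).

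The promoter of Gzmb differs from those of the other 5, which resemble each other, so a stretch at or near each start is shown. The windows of Gzmb and Gzmc run to bases 10 and 3, counted from 1 at the start, and the others end 2 to 23 bases before it. Each is 120 bases of the RefSeq promoter (GRCm38.p6), read 5′ to 3′ on the minus strand. Capitals mark TGTGGT, the core motif bound by Runx factors. In Gzmb they also mark an AP-1 motif (TGANTCA), and in the other 5 the 8 bases at the place of a cyclic AMP response element (CRE, TGACGTCA). The windows are chr14:56262325-56262444 for Gzmb, chr14:56234655-56234774 for Gzmc, chr14:56132595-56132714 for Gzmd, chr14:56120628-56120747 for Gzme, chr14:56211430-56211549 for Gzmf and chr14:56159597-56159716 for Gzmg.
Gzmb: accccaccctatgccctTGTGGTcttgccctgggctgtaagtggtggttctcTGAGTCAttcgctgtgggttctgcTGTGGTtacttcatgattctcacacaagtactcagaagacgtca
Gzmc: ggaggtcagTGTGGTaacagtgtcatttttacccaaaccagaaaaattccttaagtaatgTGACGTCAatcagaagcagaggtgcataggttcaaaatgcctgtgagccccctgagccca
Gzmd: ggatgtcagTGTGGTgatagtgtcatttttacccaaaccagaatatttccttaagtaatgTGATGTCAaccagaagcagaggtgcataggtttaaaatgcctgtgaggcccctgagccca
Gzme: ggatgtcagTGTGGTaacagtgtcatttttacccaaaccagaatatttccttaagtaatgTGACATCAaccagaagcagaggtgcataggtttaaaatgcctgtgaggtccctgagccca
Gzmf: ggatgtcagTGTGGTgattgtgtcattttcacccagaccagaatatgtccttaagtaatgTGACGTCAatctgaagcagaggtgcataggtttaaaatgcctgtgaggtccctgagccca
Gzmg: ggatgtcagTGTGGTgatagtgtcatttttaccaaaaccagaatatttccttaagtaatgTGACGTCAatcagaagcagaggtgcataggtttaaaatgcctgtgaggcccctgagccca

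Over the whole promoter table entry (250 bases before the start to 50 after it), Gzmd and Gzme were 93.4% identical by global alignment, and Gzmb was 43.5% to 47.8% identical to the other 5. The full CRE letters, searched on both strands, were in Gzmc, Gzmf and Gzmg and in 1.88% of 27025 RefSeq promoters of the same length. Counted from 1 at the 5′ end of TGACGTCA, Gzmd carried C4T and Gzme carried G5A. The AP-1 letters were in Gzmb alone among the 6 and in 7.93% of all promoters. The Runx letters were in all 6 and in 16.9% of promoters. TTCNNNGAA, the core letters of a STAT motif, were in Gzmb among the 6 and in 8.47% of promoters, and the E-box CANNTG was in all but Gzmg and in 72.1% of promoters. In these 6 promoters no match shared a base with a match of another motif. A match of letters shows neither binding nor a cause.

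The libraries held 96486469 (mSTAR1302) and 110026997 (vehicle) UMIs over all barcodes. With at least 1000 UMIs, at least 500 genes and at most 10% mitochondrial UMIs, 9155 and 7615 barcodes were kept as cells, 17 of which occurred in both libraries. T cells were those with at least 2 UMIs of Cd3d, Cd3e and Cd3g. CD8 cells were T cells in which Cd4 was at 0 and Cd8a or Cd8b1 was seen, which gave 6290 cells (mSTAR1302) and 2460 (vehicle). CD4 cells had Cd4 and neither Cd8 gene and were split by a UMI of Foxp3, the regulatory T cell factor, into 791 and 622 cells without it and 146 and 1365 with it. The CD8 cells differed in depth, with a median of 6597.5 UMIs in mSTAR1302 and 9865.5 in vehicle, so shares of cells are given after each cell was thinned to 3000 UMIs (5610 and 2340 CD8 cells were deep enough). All 8 T cell markers passed 20 CPM (the gene's UMIs scaled to 1000000 UMIs of the gate) in every one of these gates. Macrophage markers moved with the library: 1 of 6 passed 20 CPM in mSTAR1302 CD8 cells and 4 in vehicle, with sums of 56.2 and 686 CPM and none at 0, and the 7 NK markers summed to 30.3 and 92.8 CPM (1 of 7 past 20 CPM in each) with Klra8 and Klra4 at 0 in both. Their part in the granzyme differences was not tested.

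In CD8 cells the cluster split. Gzmb was higher in the mSTAR1302 library, Gzmd, Gzme and Gzmf were lower, and Gzmc and Gzmg were close to equal. Gzmb stood at 1379 CPM (95% Poisson interval 1369 to 1390) in mSTAR1302 and 361 CPM (354 to 368) in vehicle, a ratio of 3.82 (3.74 to 3.90). Gzmd stood at 179 CPM (175 to 183) and 249 CPM (243 to 255), 1.39-fold lower in mSTAR1302 (1.35 to 1.44). Gzme stood at 104 CPM (101 to 107) and 155 CPM (151 to 160), 1.49-fold lower (1.43 to 1.55). These 2 neighbours, the closest in sequence, thus differed by like amounts. Gzmf stood at 204 CPM (200 to 208) and 367 CPM (360 to 374), 1.80-fold lower (1.76 to 1.86). Gzmc, the neighbour of Gzmb, stood at 52.1 CPM (50.1 to 54.2) and 49.9 CPM (47.4 to 52.6), a ratio of 1.04 (0.978 to 1.12). Gzmg was near the bottom of what was counted, at 2.07 CPM (1.69 to 2.52) and 2.28 CPM (1.76 to 2.90).

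The background was 5473 genes that reached 20 CPM in one of the libraries. After 1 CPM was added, 51 of them (0.932%) were higher in mSTAR1302 CD8 cells by 2-fold or more, and 245 (4.48%) were lower by as much. Of the 6 granzymes 5 passed that level, all but Gzmg, and 1 of these was called higher (Gzmb) and 0 lower. The median log2 ratio over all tested genes was -0.14. Scaling by the median ratio over genes (0.920) in place of the totals raised every ratio alike, to 4.15 for Gzmb, 1.14 for Gzmc, 0.781 for Gzmd, 0.729 for Gzme and 0.602 for Gzmf, with no change of direction.

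**Figure D1:**
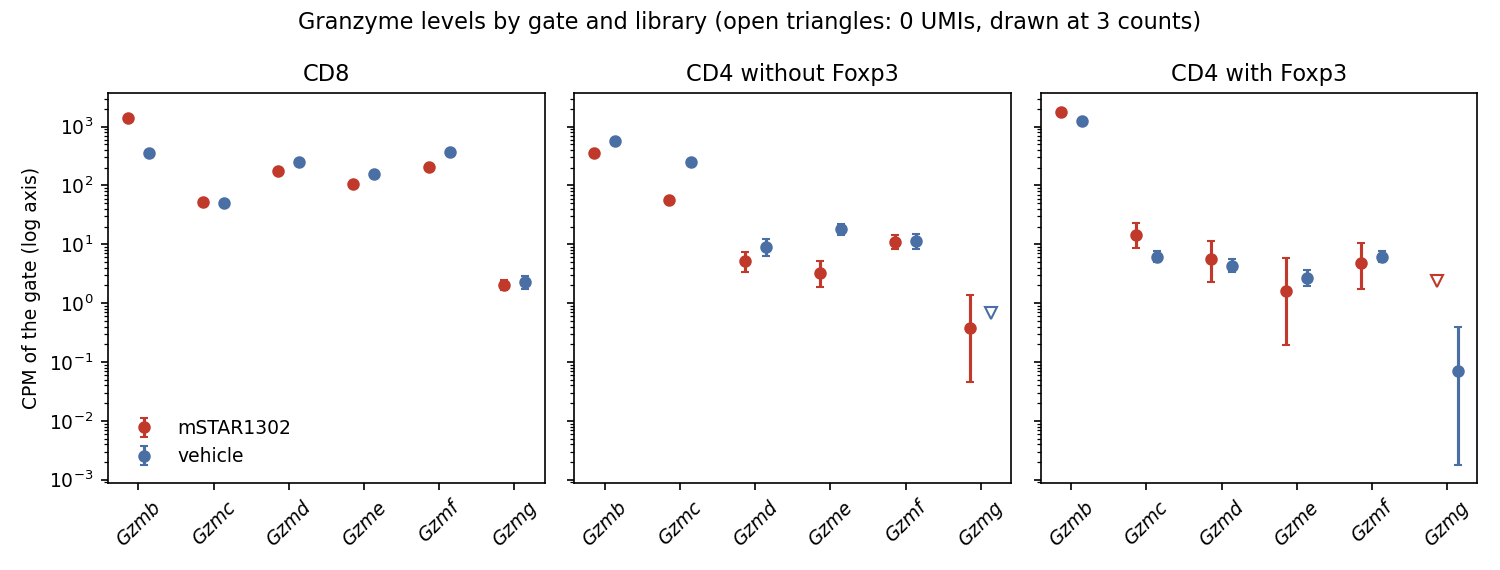
Level of each granzyme (CPM, log axis) in 3 gates, with red points for mSTAR1302 and blue for vehicle. Bars are 95% Poisson intervals, often smaller than the point, and open triangles mark 0 UMIs at the level of 3 counts. In CD8 cells Gzmb is higher in mSTAR1302 (1379 against 361 CPM) while Gzmd, Gzme and Gzmf are lower.

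The order of the levels also differed between libraries. These are counts at the 3′ end, not divided by length. In mSTAR1302 CD8 cells the order was Gzmb, Gzmf, Gzmd, Gzme, Gzmc, Gzmg with no overlap of intervals. In vehicle CD8 cells Gzmf and Gzmb led with overlapping intervals, followed by the same remaining order. The place of Gzmf rests on few cells: 10 cells held 34.7% (mSTAR1302) and 50.9% (vehicle) of its UMIs, against 17.4% and 25.7% for Gzmd. Without the 10 fullest cells of each gene, Gzmf stood at 134 and 182 CPM, below Gzmd at 148 and 186 CPM. Gzmb made up 71.8% (71.6% to 72.1%) of the 6 genes' UMIs in mSTAR1302 and 30.5% (30.0% to 31.0%) in vehicle. Gzmf made up 10.6% and 31.0%, Gzmd 9.31% and 21.0%, and Gzme 5.42% and 13.1%. Within Gzmc to Gzmg alone the makeup was closer, with Gzmf at 37.7% and 44.6%, Gzmd at 33.1% and 30.2%, Gzme at 19.2% and 18.8%, Gzmc at 9.64% and 6.06% and Gzmg at 0.383% and 0.277%. These shares do not depend on how the libraries are scaled.

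At equal depth, a Gzmb UMI was found in 73.1% of CD8 cells in mSTAR1302 and 32.1% in vehicle, a difference of 40.9 percentage points (Newcombe interval 38.7 to 43.1). Gzmd was found in 7.75% and 12.4%, a difference of -4.60 points (-6.14 to -3.13). Gzme was found in 6.58% and 10.4%, a difference of -3.81 points (-5.25 to -2.45). Both were thus found in a smaller share of CD8 cells in the mSTAR1302 library. The Gzmf share differed less, at 5.15% and 6.41% (-1.26 points, -2.46 to -0.15), than its CPM. Gzmc was found in 3.65% and 2.52% (1.13 points, 0.28 to 1.9). Gzmg was found in 0.34% and 0.56%, with an interval that spans 0 (-0.63 to 0.08 points). Cells that should lack these genes also held UMIs of them. Among 62 vehicle cells gated as macrophages (median 22586.5 UMIs) Gzmb was in 16.1%, Gzmd and Gzmf each in 8.06% and Gzmc in 3.23% at full depth. After thinning, 53 of these cells were left, with Gzmb in 1.89% and no UMI of Gzmc to Gzmg, with a Clopper-Pearson upper bound of 6.72% for each. The Gzme share of mSTAR1302 CD8 cells and the Gzmc, Gzmf and Gzmg shares of both libraries lie under that bound. The 15 mSTAR1302 cells gated as macrophages (median 12158 UMIs) held Gzmb in 33.3%, Gzmd in 6.67% and no Gzmc or Gzmf at full depth, and 1 of 14 (7.14%) held Gzmb after thinning. Other cells outside the T cell gate held Gzmb in 21.1% (mSTAR1302) and 8.08% (vehicle) after thinning. These can include T cells with 1 Cd3 UMI and NK cells, so they are not read as background. Of 10 vehicle cells outside the T cell gate with at least 10 Gzmb UMIs, 5 had a Cd3 UMI and 4 an NK marker UMI. In mSTAR1302 there were 2 such cells, and both had a Cd3 UMI. Droplets with 100 to 300 UMIs held Gzmb in 20.8% (mSTAR1302) and 12.3% (vehicle), Gzmd in 2.81% and 3.04%, and Gzmf in 4.50% and 3.92%. The Gzmb background in these droplets was thus higher in mSTAR1302, the direction of the CD8 difference. With 5% free RNA subtracted in each library the CD8 ratio of Gzmb was 4.05.

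**Figure D2:**
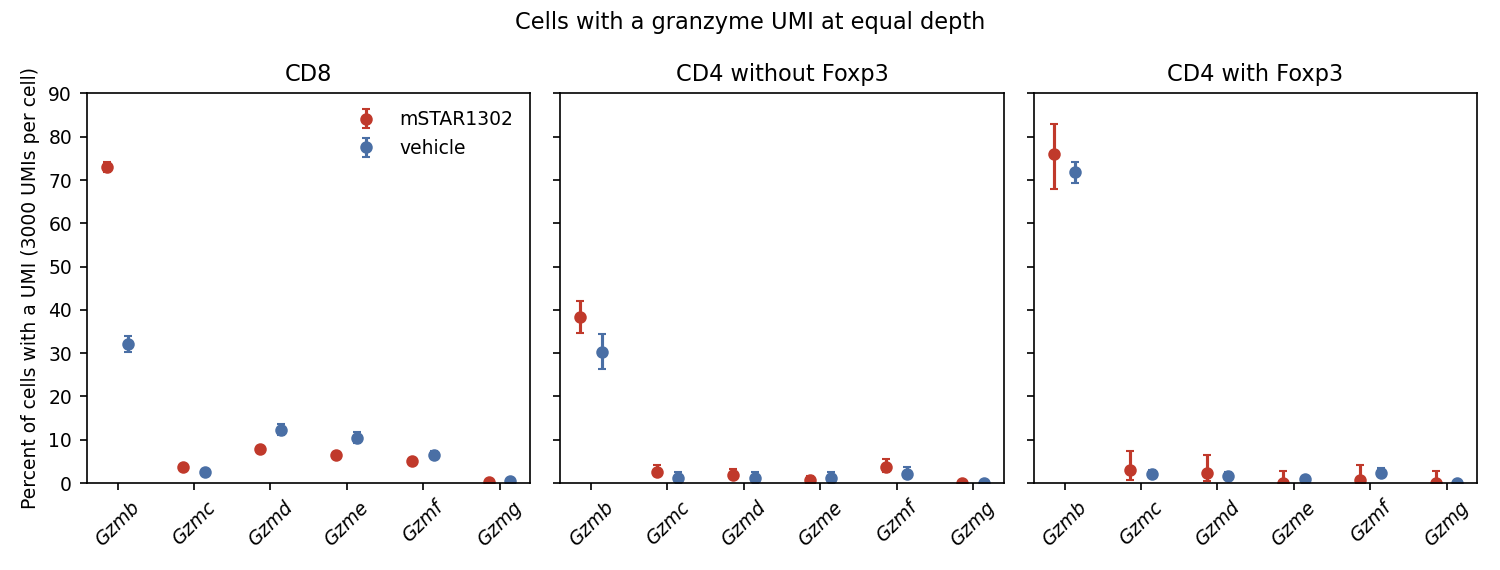
Percent of cells with at least 1 UMI of each granzyme after thinning to 3000 UMIs per cell, in 3 gates, red for mSTAR1302 and blue for vehicle, with 95% Clopper-Pearson intervals. Gzmb separates the libraries in CD8 cells (73.1% against 32.1%) and stands at 76.1% and 71.8% in CD4 cells with Foxp3, where Gzmc to Gzmg are near 0.

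Transcripts of Gzmc to Gzmg were concentrated in few cells. CD8 cells with at least 10 UMIs of the 5 genes together were 333 of 6290 (5.29%) in mSTAR1302 and 246 of 2460 (10.0%) in vehicle. They held 92.6% and 96.1% of those UMIs. For Gzmb, 2008 cells (31.9%) and 276 cells (11.2%) had at least 10 UMIs. For Gzmf the same count was 102 (1.62%) and 73 (2.97%), and the fullest cell held 563 UMIs in mSTAR1302 and 1326 in vehicle. For Gzmd it was 205 (3.26%) and 156 (6.34%), for Gzme 161 (2.56%) and 124 (5.04%), and for Gzmc 54 (0.859%) and 23 (0.935%). The share of cells rich in Gzmd, Gzme or Gzmf was thus lower in mSTAR1302, at unequal depth in favour of vehicle. Leaving out the 10 cells of each library with the most UMIs of the gene moved Gzmf from a ratio of 0.554 to 0.734 and Gzmc from 1.04 to 1.92, while Gzmb (4.20), Gzmd (0.796) and Gzme (0.715) moved less. This removes a larger share of the smaller vehicle gate. The direction for Gzmc and for Gzmg was not the same in all alternatives tried.

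**Figure D3:**
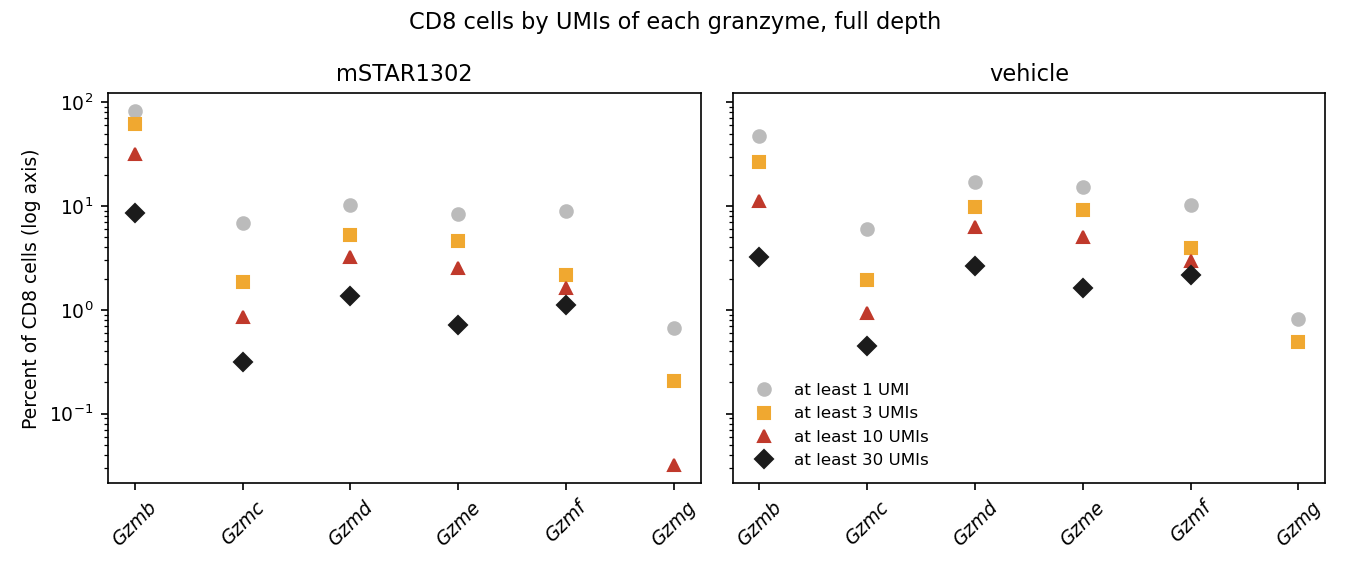
Percent of CD8 cells (log axis) with at least 1, 3, 10 or 30 UMIs of each granzyme at full depth, mSTAR1302 left and vehicle right. Where no cell reaches a number the symbol is missing, as for Gzmg at 30. Gzmf drops from 559 cells with at least 1 UMI to 137 with at least 3 in mSTAR1302, and from 251 to 97 in vehicle. Most Gzmf cells with at least 3 UMIs also have at least 10 (102 of 137 in mSTAR1302 and 73 of 97 in vehicle).

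Within CD8 cells the neighbours were found together, to unlike degrees. Gzmd and Gzme were the closest pair. At 3000 UMIs per cell, Gzme was found in 59.3% (54.5% to 64.0%) of 435 Gzmd cells and 2.14% of cells without Gzmd in mSTAR1302, and in 66.8% (61.0% to 72.2%) of 289 and 2.44% in vehicle. Pearson's r of log counts over cells was 0.79 and 0.80. Of cells with at least 30 UMIs of Gzmd, 0 of 86 in mSTAR1302 and 1 of 65 in vehicle had no Gzme UMI. Gzmc and Gzmf overlapped less closely. Gzmf was found in 28.8% (22.7% to 35.5%) of 205 Gzmc cells in mSTAR1302 and in 64.4% (50.9% to 76.5%) of 59 in vehicle, with r of 0.45 and 0.64. Gzmd and Gzmf overlapped at r of 0.41 and 0.40, and 39 of 86 and 29 of 65 cells with at least 30 Gzmd UMIs had no Gzmf. Of cells with at least 30 Gzmf UMIs, 7 of 70 in mSTAR1302 and 11 of 54 in vehicle had no Gzmd. Gzmc was missing from 18 of 70 and 11 of 54 of the same cells. Cells rich in Gzmf thus held Gzmd at least as often as Gzmc. All of these pairs share library and depth, and the r values describe cells of 1 library each.

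Sequence likeness limits the reading of the closest pair. In the last 500 bases of the transcripts, where 3′ reads fall, the longest identical run was 96 bases for Gzmd and Gzme, 72 for Gzmf and Gzmg, 71 for Gzmd and Gzmf, at most 18 for Gzmc with any other and at most 10 for Gzmb. A read inside such a run cannot be placed on 1 gene. The levels of Gzmd, Gzme, Gzmf and Gzmg are therefore uncertain, and the part of shared reads in their co-occurrence was not tested.

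Gzmb did not follow the others in the same way in both libraries. In mSTAR1302, a Gzmb UMI was found in 53.3% (48.5% to 58.1%) of Gzmd cells and 74.7% (73.5% to 75.9%) of cells without Gzmd. In vehicle the shares were 36.0% (30.5% to 41.8%) and 31.6% (29.6% to 33.7%). Gzmc cells were rich in Gzmb in both libraries, with Gzmb in 82.0% (76.0% to 87.0%) against 72.8% of cells without Gzmc in mSTAR1302 and in 74.6% (61.6% to 85.0%) against 31.0% in vehicle. Of cells with at least 30 Gzmc UMIs, 0 of 20 and 0 of 11 lacked Gzmb. Gzmf cells held Gzmb in 76.8% and 54.7%, against 72.9% and 30.6% of cells without Gzmf. Among the fullest Gzmb cells, with at least 30 UMIs, 481 of 536 in mSTAR1302 and 62 of 79 in vehicle had no Gzmd UMI.

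**Figure D4:**
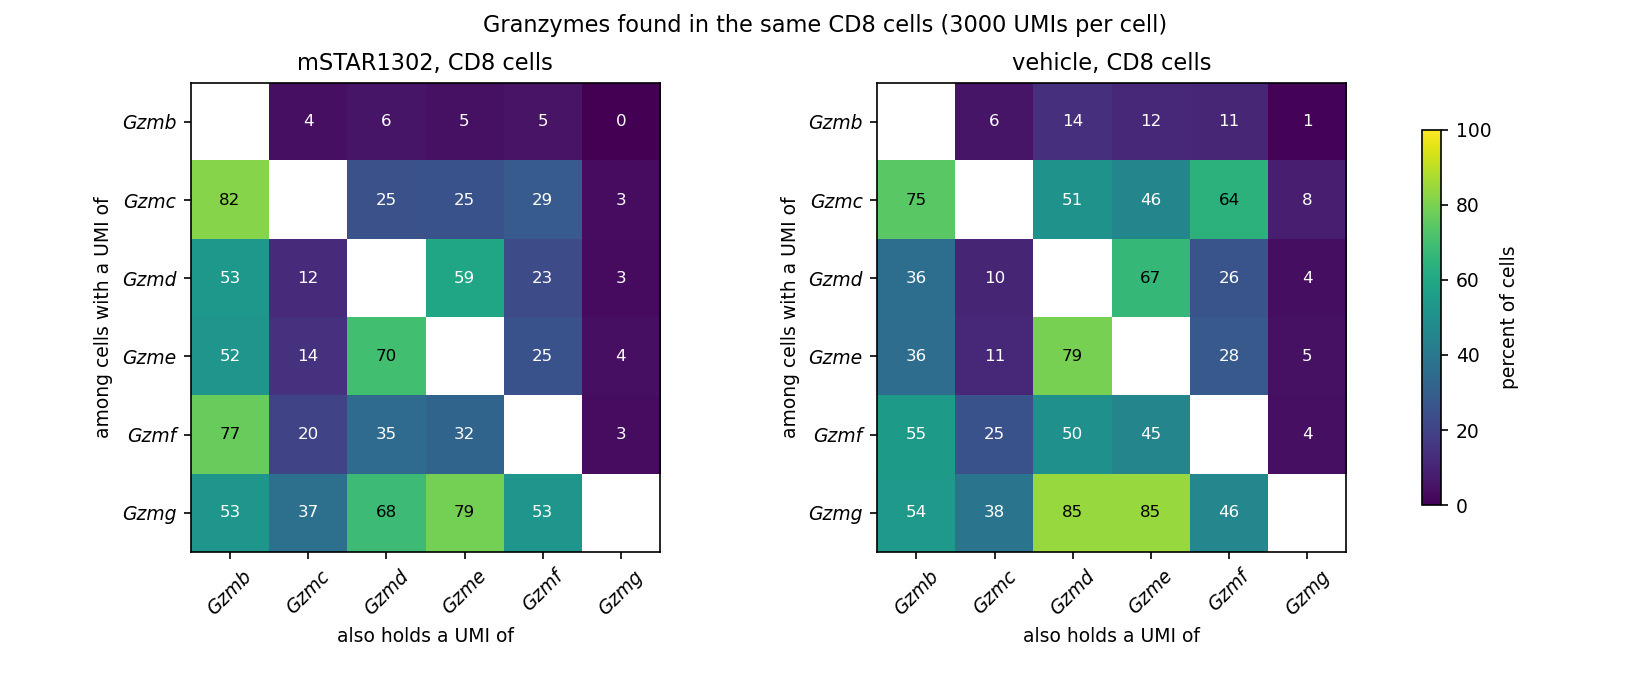
For CD8 cells thinned to 3000 UMIs, each square gives the percent of cells with the row gene that also hold the column gene, mSTAR1302 left and vehicle right, on a colour scale from 0 to 100 percent. Among Gzmc to Gzmf, Gzmd and Gzme are found together most often (59.3% and 66.8% of Gzmd cells hold Gzme), and the Gzmg rows rest on 19 and 13 cells.

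Counting genes per cell, 4755 of 5610 CD8 cells in mSTAR1302 (84.8%) and 1914 of 2340 in vehicle (81.8%) had none of Gzmc to Gzmg at 3000 UMIs. Exactly 1 was found in 541 (9.64%) and 203 (8.68%), and 2 in 209 (3.73%) and 145 (6.20%). All 5 were found in 6 and 4 cells. Cells with Gzmd or Gzme and neither Gzmc nor Gzmf were 7.43% of CD8 cells in mSTAR1302 and 10.8% in vehicle. Cells with Gzmc or Gzmf and neither of Gzmd and Gzme were 5.45% and 3.63%, and cells with both kinds were 2.30% and 3.68%. The median cell with Gzmc or with Gzmf held 1 UMI of it, and these shares lie under the bound of 6.72% from macrophage-gated cells, so no order of the libraries is read from them. Other genes seen in these classes, picked after their values were seen, did not follow one order. In mSTAR1302, Gzma, a granzyme outside the cluster, was in 30.0% of the Gzmd or Gzme class, 55.6% of the Gzmc or Gzmf class, 27.9% of cells with both and 57.9% of cells with neither. Pdcd1, the inhibitory receptor PD-1, was in 37.9%, 25.2%, 61.2% and 14.6% in the same order, and the pore-former Prf1 in 41.2%, 25.8%, 66.7% and 21.9%. In vehicle, Pdcd1 was in 51.4%, 40.0%, 68.6% and 37.1%, and Prf1 in 47.4%, 34.1%, 57.0% and 29.4%. Lag3, another inhibitory receptor, was in 59.2%, 29.1%, 66.7% and 22.7% in mSTAR1302, and in 67.2%, 45.9%, 55.8% and 47.3% in vehicle. Pdcd1 and Prf1 had their highest shares in cells with both kinds in each library, with overlapping intervals for Prf1 in vehicle (45.9% to 67.6% and 41.1% to 53.8%), and Lag3 did not in vehicle. Havcr2, which encodes the inhibitory receptor TIM-3, was in 21.1%, 19.9%, 37.2% and 14.7% in mSTAR1302, and in 9.09%, 21.2%, 20.9% and 10.96% in vehicle.

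The T cell receptor segment that the antibody is directed to separated Gzmb from Gzmd and Gzme in mSTAR1302. Segment reads were sparse, so cells were used only where Trbv UMIs were seen. In mSTAR1302, 662 thinned CD8 cells had Trbv13-2 or Trbv13-3 and no other Trbv, and 766 had another Trbv only. Gzmb was in 79.8% (76.5% to 82.8%) of the former and 63.6% (60.1% to 67.0%) of the latter. Gzmd was in 4.83% (3.33% to 6.76%) and 13.8% (11.5% to 16.5%), at 112 and 408 CPM. Gzme was in 3.17% (1.97% to 4.81%) and 13.8% (11.5% to 16.5%), at 51.3 and 234 CPM. The shares of Gzmf, at 6.80% and 7.18%, had overlapping intervals, as did those of Gzmc, at 3.78% and 5.61%. In vehicle the first kind was rare, with 72 thinned cells against 499. There Gzmb was in 40.3% (28.9% to 52.5%) and 31.3% (27.2% to 35.5%), Gzmd in 2.78% (0.34% to 9.68%) and 13.0% (10.2% to 16.3%), and Gzme in 5.56% (1.53% to 13.6%) and 10.2% (7.70% to 13.2%). The vehicle levels did not follow these shares, with Gzmd at 284 and 274 CPM and Gzme at 176 and 164 CPM, so no order is read for vehicle. Cells with another Trbv in mSTAR1302 and vehicle had like shares of Gzmd, 13.8% and 13.0%, and unlike shares of Gzmb, 63.6% and 31.3%. Their levels were higher in mSTAR1302, at 408 and 274 CPM for Gzmd and 234 and 164 CPM for Gzme. That is the reverse of all CD8 cells, and no order of the libraries is read for Gzmd in these cells. Whether these differences depend on the library was not tested.

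**Figure D5:**
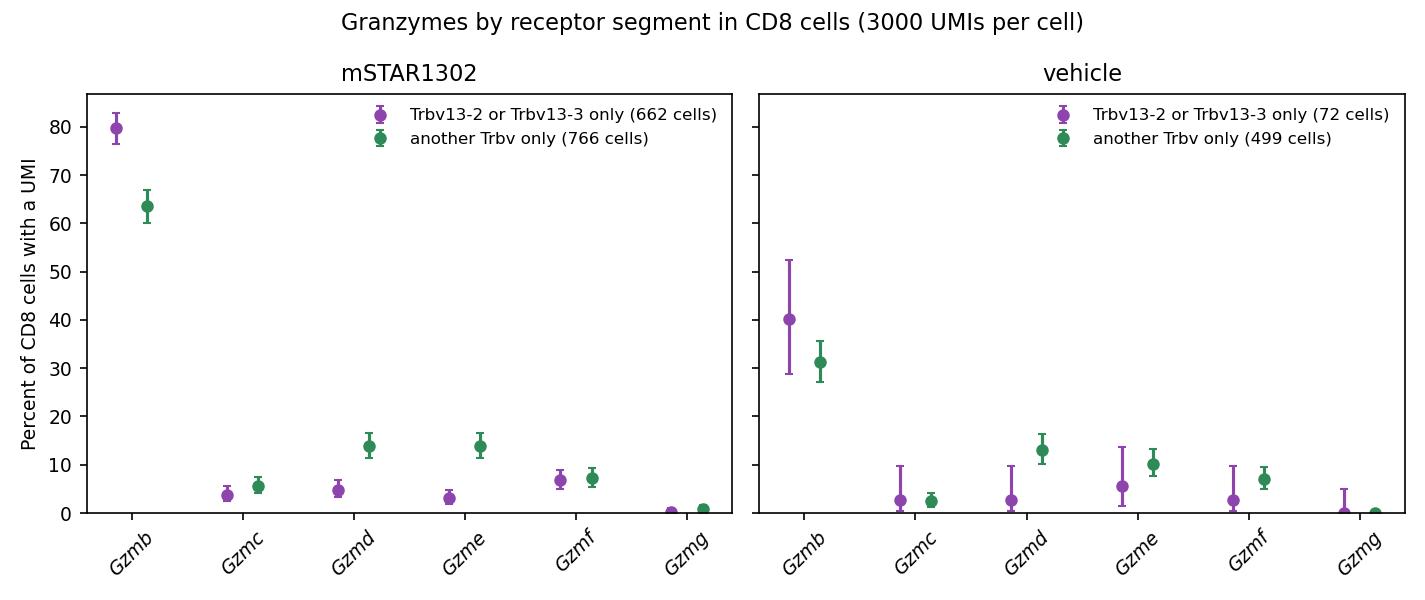
Percent of CD8 cells with a UMI of each granzyme at 3000 UMIs per cell, purple for cells with Trbv13-2 or Trbv13-3 only and green for cells with another Trbv only, with 95% Clopper-Pearson intervals. In mSTAR1302 the purple cells have more Gzmb (79.8% against 63.6%) and less Gzmd (4.83% against 13.8%) and Gzme, and the vehicle intervals are wide.

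Other markers of cell state split the genes in their own ways. Cells with a Gzma UMI at full depth held Gzmb more often at 3000 UMIs, in 82.2% against 54.8% in mSTAR1302 and 66.3% against 29.2% in vehicle. They held Gzmd less often, in 4.98% against 13.3% and 4.89% against 13.0%. Without Gzma, the Gzmd share was 13.3% in mSTAR1302 and 13.0% in vehicle. The levels in these cells were higher in mSTAR1302, at 315 and 256 CPM for Gzmd and 192 and 160 CPM for Gzme. That is the reverse of all CD8 cells, so the libraries are not read as alike here. The Gzma groups are not alike between the libraries. A Gzma UMI was in 4080 of 6290 CD8 cells in mSTAR1302 and 189 of 2460 in vehicle. Droplets of 100 to 300 UMIs held Gzma in 17.6% (mSTAR1302) and 0.365% (vehicle). The part of Gzma in the Gzmd difference was not tested. Tcf7 encodes a factor of stem-like T cells. Gzmd was in 3.02% of cells with Tcf7 and 9.22% without it in mSTAR1302, and in 5.21% and 14.6% in vehicle. Gzmb was in 72.2% of cells with Tcf7 and 73.4% without it in mSTAR1302 and in 21.5% and 35.4% in vehicle. Its level was lower with Tcf7 in both, at 1057 and 1488 CPM in mSTAR1302 and 144 and 440 CPM in vehicle. Gzmd was in 12.1% of cells with Havcr2 and 6.11% without it in mSTAR1302, and in 14.4% and 11.7% in vehicle. Gzmf reached 407 CPM with Havcr2 and 101 CPM without it in mSTAR1302, and 719 and 238 CPM in vehicle. Mki67, a marker of dividing cells, made less difference to the Gzmd share, at 8.06% and 7.68% in mSTAR1302 and 13.4% and 12.0% in vehicle. Gzmc stood at 66.3 CPM with Mki67 and 47.3 CPM without it in mSTAR1302, and at 87.8 and 32.6 CPM in vehicle. Gzmf stood at 243 and 190 CPM, and at 469 and 321 CPM. The levels of both rest on few cells. Gzmb and Gzme had lower CPM with Mki67 in both libraries, and Gzmd in vehicle alone. Their shares at equal depth went the other way. Gzmb was in 74.6% with Mki67 and 72.7% without it in mSTAR1302, and in 34.2% and 31.6% in vehicle. Gzme was in 7.10% and 6.46%, and in 11.1% and 10.2%. No order by Mki67 is read for these genes.

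CD4 cells without Foxp3 had Gzmb and little of the rest of the cluster. Gzmb stood at 351 CPM (335 to 368) in mSTAR1302 and 578 CPM (556 to 601) in vehicle, a ratio of 0.607 (0.571 to 0.645). Its share of cells went the other way at equal depth, at 38.4% and 30.3%, a difference of 8.13 points (2.79 to 13.4). Cells with at least 10 Gzmb UMIs were 6.32% in mSTAR1302 and 11.6% in vehicle. No order of the libraries is read from these, since level and share point in opposite directions. Gzmc stood at 56.5 and 246 CPM, and 1 or 2 cells made that difference: 2 vehicle cells held 97.9% of 1064 UMIs, and 1 mSTAR1302 cell held 217 of 295. Without the 10 fullest cells of each library the ratio turned from 0.229 to 1.86. Gzmd stood at 5.17 and 9.03 CPM, Gzme at 3.25 and 18.1 CPM and Gzmf at 10.9 and 11.3 CPM. For Gzme in vehicle, 2 cells held 80.8% of the UMIs. Gzmg had 2 UMIs in mSTAR1302 and 0 in vehicle, where 3 counts would be 0.694 CPM. Of the 6, 2 passed 20 CPM and 1 (Gzmc) was called 2-fold lower, where 47 (0.852%) of 5518 genes were higher and 276 (5%) lower. Macrophage markers in this gate summed to 72.4 CPM in mSTAR1302 and 834 CPM in vehicle. The 4 regulatory T cell markers summed to 563 and 1424 CPM, with 3 of 4 past 20 CPM in each library and Foxp3 at 0 by the gate. The part of either list in these differences was not tested.

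CD4 cells with Foxp3 carried the most Gzmb of any gate in vehicle and in mSTAR1302. Gzmb stood at 1754 CPM (1681 to 1829) in mSTAR1302, from 146 cells, and at 1249 CPM (1231 to 1268) in vehicle, from 1365 cells, a ratio of 1.40 (1.34 to 1.47). The shares at equal depth were 76.1% and 71.8%, with an interval of the difference that spans 0 (-3.88 to 11.3 points). Gzmb made up 98.5% of the 6 genes' UMIs in each library. Gzmc stood at 14.4 CPM (18 UMIs) and 6.17 CPM (89 UMIs), Gzmd at 5.62 and 4.37 CPM, Gzme at 1.60 and 2.70 CPM, Gzmf at 4.81 and 6.17 CPM, and Gzmg had 0 UMIs and 1 UMI. No cell of this gate held more than 4 UMIs of any of Gzmc to Gzmg, and their thinned shares, at most 2.99%, are near those of cells that should lack the genes. Of the 6, 1 passed 20 CPM and 0 were called in either direction, where 28 (0.488%) of 5732 genes were higher and 100 (1.74%) lower. CD4 cells with Foxp3 thus carried Gzmb with its neighbours at or near background. Macrophage markers summed to 7.22 CPM in mSTAR1302, with C1qa, C1qc, Csf1r and Adgre1 at 0, and to 242 CPM in vehicle, and their part was not tested.

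T cells with UMIs of both lineages, 843 and 1302, had Gzmb at 1156 and 787 CPM, a ratio of 1.47 (1.43 to 1.51). Gzmd stood at 142 and 154 CPM, a ratio of 0.922 (0.864 to 0.983), and the interval for Gzme (0.977, 0.895 to 1.07) spans 1. Gzmf stood at 288 and 184 CPM, a ratio of 1.56 (1.49 to 1.64), the reverse of CD8 cells. Its level rests on few cells, so no order of the libraries is read from it. The fullest cell held 1272 of 2698 Gzmf UMIs in mSTAR1302 and 1266 of 3774 in vehicle. The 10 fullest cells held 81.2% and 91.6%. This gate can hold doublets, which were not removed. T cells with neither, 648 and 980, had Gzmb at 807 and 851 CPM and each of Gzmc to Gzmg under 16 CPM. Outside the T cell gate, Gzmc stood out in vehicle: 12 of 886 cells had at least 10 UMIs and held 1967 of the 1979 Gzmc UMIs there. Of these 12 cells, 11 had a UMI of an NK marker and 11 of Tyrobp, a signalling adaptor of NK and myeloid cells, and 5 had a single Cd3 UMI. In mSTAR1302, 3 of 437 such cells held 97 of 111 Gzmc UMIs, and all 3 had an NK marker UMI. Gzmd, Gzme and Gzmf each had at most 3 such cells in vehicle and 0 in mSTAR1302. Shares of these cells are not compared, since the bead selection sets them.

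Over CD8 cells, likeness to the summed Gzmc to Gzmg was taken as Pearson's r of log-scaled counts in each library (6290 and 2460 cells), for 9323 genes found in at least 2% of CD8 cells of both. Genes were ranked by the lower of the 2 libraries' r. Spp1, the secreted phosphoprotein osteopontin, ranked highest, with r of 0.39 in mSTAR1302 and 0.47 in vehicle. Prf1 followed at 0.28 and 0.28, then Serpinb9b, a serine protease inhibitor, at 0.28 and 0.32. The other 7 of the highest 10 were Myo10, Upp1, Nrgn, Gipc2, Cst7, Irf8 and Kit. Among these, the calmodulin-binding Nrgn had r of 0.40 and 0.25, above Spp1 in mSTAR1302 alone, Irf8, an interferon regulatory factor, 0.32 and 0.21, and Kit, the receptor of stem cell factor, 0.26 and 0.21. Macrophages express Spp1 too, and their markers were higher in the vehicle CD8 gate, as given above. The 5 most opposed were Pim1, Smad7, Arl4c, Ccl5 and Gna13, with Ccl5, a chemokine of effector T cells, at -0.23 and -0.16 and Smad7, an inhibitor of TGF-β signalling, at -0.19 and -0.17. Gzmb itself had r of -0.07 and 0.10 with the sum. The 6 genes most like Gzmb were others: Ly6a (0.30 and 0.32), Ccl5 (0.28 and 0.30), Gzma (0.36 and 0.28), Zbp1 (0.29 and 0.28), Ly6c1 (0.36 and 0.27) and Ly6c2 (0.38 and 0.24). Ccl5 was thus among the genes most like Gzmb and among those most opposed to the rest of the cluster. Counts from the same cells share depth, and these values are descriptions. After thinning to 3000 UMIs, Myo10, Upp1, Gipc2 and Kit left the highest 10 for S100a4, Ifitm1, Klrd1 and Slc16a11, and Arl4c and Gna13 left the most opposed for Zfp36l2 and Cd69.

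Of the other granule genes, 23 of 24 passed 20 CPM in CD8 cells, 2 were called higher and 2 lower by the 2-fold rule (0.932% and 4.48% of all tested genes), with a median log2 ratio of -0.14, the same as that of all genes. Gzma stood at 1176.5 CPM in mSTAR1302 and 66.2 CPM in vehicle, 17.8-fold higher, and Gzmk at 84.7 and 17.5 CPM, 4.84-fold higher. Both lie outside the cluster. Prf1 stood at 160 and 205 CPM, 1.28-fold lower, and Srgn, the proteoglycan that packs granzymes, at 1882 and 1780 CPM. Ctsc, the protease that activates granzymes, was 2.03-fold lower (50.8 and 103 CPM) and the inhibitor Serpinb6a 2.05-fold lower (91.4 and 187 CPM). Of 24 factors and receptors known to act on granzyme genes or effector differentiation, 23 passed, 0 were 2-fold higher and 2 were 2-fold lower (beside the same 0.932% and 4.48%), with a median log2 ratio of -0.22. These were Zeb2, at 58.3 and 141 CPM, and Bach2, a repressor of effector genes, at 26.7 and 72.0 CPM. Eomes, the listed factor that did not pass 20 CPM, was higher in mSTAR1302. It stood at 16.7 and 5.67 CPM, from 815 and 164 UMIs, a ratio of 2.95 (2.49 to 3.51). Runx3, a Runx factor of CD8 T cells, stood at 252 and 229 CPM, and Tbx21, encoding T-bet, at 35.3 and 57.7 CPM. Of 16 listed genes of the wider chromosome 14 neighbourhood, 14 were in the files and 0 passed 20 CPM in CD8 cells. Khnyn stood at 14.7 and 16.3 CPM and Sdr39u1 at 9.45 and 9.40 CPM, and the others were under 1 CPM. The mast cell protease genes Cma1, Mcpt4 and Mcpt8 had 4, 3 and 10 UMIs in mSTAR1302 and 6, 1 and 4 in vehicle. In CD4 cells Khnyn stood at 17.8 and 21.3 CPM without Foxp3 and at 28.1 and 28.0 CPM with it.

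In CD4 cells without Foxp3, 19 of the 24 granule genes passed 20 CPM, 4 were 2-fold higher and 3 2-fold lower (0.852% and 5% of all tested genes), with a median log2 ratio of -0.17 against -0.21 for all genes. Those higher were Gzma, at 65.7 and 12.3 CPM, the granule protein gene Nkg7, at 590 and 215 CPM, the granzyme B inhibitor Serpinb9, at 67.8 and 23.4 CPM, and Serpinb6b, at 143 and 62.3 CPM. Those lower were Ctsc, Lamp1 and Igf2r. Of the regulators 23 passed, 0 were higher and 4 lower (Prdm1, Ikzf3, Tcf7 and Bach2). In CD4 cells with Foxp3, 17 granule genes passed and 1 was higher (0.488% of all tested genes), Gzma, at 43.3 CPM (54 UMIs) and 1.66 CPM (24 UMIs). Gzma was also higher in mSTAR1302 where it should be absent. Droplets of 100 to 300 UMIs held it at 935 and 17.7 CPM, and macrophage-gated cells in 33.3% (5 of 15) and 1.61%. The shares at full depth were 28.8% and 1.54% in CD4 cells with Foxp3 and 25.0% and 2.73% without it, and the median positive mSTAR1302 cell of each gate held 1 UMI. In CD4 cells without Foxp3, 18 cells in mSTAR1302 and 7 in vehicle held at least 3 Gzma UMIs. At least 10 were in 4 cells and 1 cell, with at most 23 and 10 in a cell. No difference in Gzma expression is read for the CD4 gates, and the part of free RNA in these values was not tested. Of 21 regulators that passed there, 0 were higher and 2 lower (1.74% of all tested genes), Rbpj at 93.1 and 188 CPM and Zeb2 at 8.83 and 53.0 CPM.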

How the data were processed

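The 2 libraries, 1 per group as the labels name them, are 10x Genomics 3′ libraries. The authors deposited unfiltered matrices of UMI counts per gene and barcode. Cell Ranger is named as version 4 per the file headers and as 6.0.1 per the submitters' processing notes, which also give mm10. The deposited counts were used without correction for free RNA, and doublets were not removed.

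Counts were summed over gated cells and divided by the gate total (CPM). Intervals are exact Poisson (CPM), exact conditional binomial (ratios), Clopper-Pearson (shares) and Newcombe (share differences), at 95%, and cover counting error only. For shares, each cell was thinned to 3000 UMIs without replacement and shallower cells were left out. With 1 library per group no test was made. A 2-fold call used CPM + 1 and at least 20 CPM in either library. The calculation was run on simulated counts with planted changes larger than 2-fold. These had counting error and no other variation between libraries, so they cannot show how reliable the calls are. Positions and transcripts come from GENCODE M21 and promoters from RefSeq GRCm38.p6, with an entry for all 6 genes. The promoter table's start equals the GENCODE start for Gzme and Gzmg and differs from it for the others. The calculations used Biopython 1.88, SciPy 1.17.1 and NumPy 2.4.6 under Python 3.11.15, with tables in pandas 2.3.3.

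The genes, lists and gates were chosen with earlier results of these data known. Beyond the 6 genes, the text names the 10 genes most like the summed Gzmc to Gzmg, the 5 most opposed and the 6 most like Gzmb. It also names list genes past 2-fold, up to 6 each way, and Prf1, Gzma, Gzmk, Srgn and Gzmn. List genes named for a known role in granules or regulation (Runx3, Tbx21 and the mast cell proteases) were added after their values were seen. So were Eomes, Khnyn, Sdr39u1 and the class markers. Alternatives covered depth, mitochondrial limit, gates, scaling, free RNA and leaving out full cells.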

Additional observations from a re-analysis of the deposited data

Results flagged for a closer look

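The mSTAR1302 to vehicle ratio of the Gzmb level was above 1 in CD8 cells (3.82) and CD4 cells with Foxp3 (1.40) and below 1 in CD4 cells without Foxp3 (0.607). In the last gate the share of Gzmb cells went the other way, at 38.4% and 30.3%, so no order of the libraries is read there. The Gzmc ratio was 2.34 in CD4 cells with Foxp3 and 0.229 in CD4 cells without Foxp3. Neither is read as a direction: the first rests on 18 and 89 UMIs with at most 4 in a cell, near background, and the second turned to 1.86 without the 10 fullest cells of each library. With 1 library per group these differences between gates were not tested.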

How the results depend on the processing

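No paired analysis was possible because each group has 1 library. In CD8 cells the directions of Gzmb, Gzmd, Gzme and Gzmf held in every alternative run, while those of Gzmc and Gzmg did not. Values that moved are mSTAR1302 to vehicle ratios in CD8 cells unless a CD4 gate is named. With cells weighted equally they were 3.27 (Gzmb), 1.13 (Gzmc), 0.623 (Gzmd), 0.627 (Gzme), 0.632 (Gzmg), and for Gzmb 0.495 in CD4 cells without and 1.31 with Foxp3. Thinned to 3000 UMIs they were 3.30 (Gzmb), 0.653 (Gzmd), 0.609 (Gzme), 0.585 (Gzmf) and 0.382 (Gzmg), and Gzmd in CD4 cells without Foxp3 turned from 0.573 to 1.47. With 2 UMIs asked of the lineage genes they were 3.99 (Gzmb), 0.972 (Gzmc), 0.673 (Gzmd), 0.626 (Gzme) and 0.518 (Gzmf), and for Gzmb 0.657 in CD4 cells without and 1.49 with Foxp3. Median-of-ratios scaling gave 4.15, 1.14, 0.781, 0.729 and 0.602 for Gzmb to Gzmf, and for Gzmb 0.679 and 1.52 in the same CD4 gates. Without CD8 cells that hold a Foxp3 UMI the values were 4.59, 0.872, 0.627, 0.586 and 0.467. Without cells above 3 times the median UMIs they were 3.49 (Gzmb), 0.626 (Gzmd), 0.612 (Gzme) and 0.524 (Gzmf), and 1.34 for Gzmb with Foxp3. Without the 10 fullest cells, an alternative chosen after seeing the data, they were 4.20, 1.92, 0.796, 0.715, 0.734 and 1.46 for Gzmb to Gzmg, 0.659 and 1.10 for Gzmb in the CD4 gates, and Gzmc without Foxp3 turned to 1.86. With 5% free RNA subtracted Gzmb was 4.05, Gzmf 0.538 and Gzmb without Foxp3 0.537, and with the profile of droplets of 100 to 300 UMIs, chosen after seeing the data, 4.02, 0.539 and 0.541. Gzmf was 0.509 at a mitochondrial limit of 5% and 0.577 with none. A level of 5 CPM in place of 20 gave 85 genes higher and 621 lower in CD8 cells. Except where the setting leaves out cells, the cause was not tested. Depth limits Gzmg throughout and Gzmc to Gzmg in CD4 cells.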
